A study of Mus musculus with 6 samples.

Results

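The 10 genes examined here belong to blood vessel growth and the vessel wall, and their transcripts were compared in groin fat of mice kept alone or with cage mates: the ligands Vegfa, Vegfb and Vegfc, the VEGF receptors Flt1, Kdr and Flt4, the angiopoietin gene Angpt2 and its receptor Tek, and the endothelial genes Pecam1 and Erg. They are the 10 rows of the deposited gene table, out of 56691, whose symbol equals one of these names, and all 10 passed the filter on low counts that left 18085 genes. RNA-seq of whole inguinal white adipose tissue, the subcutaneous fat pad of the groin, covered 6 male C57BL/6J mice with no genetic alteration named. Aged 8 weeks when housing began, 3 of them spent 8 weeks in cages of 4 to 6 animals (group housing) and 3 spent it with no cage mate (single housing, 1 per cage), and each mouse gave 1 library. The series title links isolation from cage mates to glucose and to sympathetic activity in this fat. The labels do not say whether the group-housed mice came from 1 cage or litter, so the p-values measure the spread between these 6 libraries.

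Vascular endothelial growth factors are secreted proteins that bind receptor tyrosine kinases on endothelial cells. VEGFA signals for blood vessel growth mainly through KDR, while FLT1 binds VEGFA tightly with weak kinase activity and also binds VEGFB. VEGFC acts mainly on FLT4, which in adults is found above all on lymphatic endothelium. ANGPT2 is released by endothelial cells and modulates TEK, a receptor that keeps vessels quiescent when ANGPT1 binds it. PECAM1 is an adhesion protein of endothelial junctions that platelets and some leukocytes also carry, and ERG is an ETS family transcription factor that maintains endothelial identity. Adipocytes themselves are a main source of VEGFA in fat, and thermogenic fat is densely vascularised.

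Of the 10 genes, Kdr and Erg stood higher in each single-housed mouse than in any group-housed mouse, and Vegfc, the ligand of the lymphatic receptor, stood lower in each. By the deposited levels, 14.5% of all genes with a mean of at least 1 FPKM likewise did not overlap, in either direction. Kdr was 1.61-fold higher and Erg 1.46-fold higher in single housing, and Vegfc was 1.34-fold higher in group housing. In edgeR the unadjusted p was 0.0118 for Kdr, 0.00404 for Erg and 0.0868 for Vegfc. None of the 10 passed the test over all genes: the smallest adjusted p was 0.432, for Erg, in edgeR's quasi-likelihood test with Benjamini-Hochberg adjustment over 18085 genes. In bulk tissue a lower cell number of a type and less RNA per cell cannot be told apart, which holds for every difference below.

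The stretches before the starts of Kdr and Vegfc are shown because these 2 genes differed between the groups in opposite directions. Each stretch is the 250 bases upstream of the gene's start in RefSeq on build GRCm38.p6, read 5′ to 3′ on the gene's strand. Bases just after the start matched a known transcript of the gene for Kdr, but no such match was found for Vegfc. Capitals mark GGAA or its reverse complement, the core that ETS factors such as ERG recognise. Kdr (chr5:75978456-75978705, minus strand) holds 4 such cores in the stretch and Vegfc (chr8:54077282-54077531, plus strand) holds 1.
Kdr: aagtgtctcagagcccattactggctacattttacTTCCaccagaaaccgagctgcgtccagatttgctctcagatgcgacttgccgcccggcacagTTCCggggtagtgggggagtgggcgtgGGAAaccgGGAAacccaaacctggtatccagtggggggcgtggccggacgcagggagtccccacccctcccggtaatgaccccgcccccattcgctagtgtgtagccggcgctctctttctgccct
Vegfc: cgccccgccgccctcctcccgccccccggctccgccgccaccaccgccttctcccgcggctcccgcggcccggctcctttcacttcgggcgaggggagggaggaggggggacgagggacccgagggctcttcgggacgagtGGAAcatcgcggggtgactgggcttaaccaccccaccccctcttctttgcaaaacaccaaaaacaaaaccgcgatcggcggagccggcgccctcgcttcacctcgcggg

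RefSeq windows of 300 bases (250 before to 50 after a start) were at hand for 8 of the 10 genes, all but Angpt2 and Pecam1, in 11 windows. GGAA on either strand was found in all 11, and in 96% of the 32851 windows of all genes, with a median of 3 matches per window. GGAAG, which contains GGAA, was found in 7 of the 11 and in 71.4% of all. The hypoxia response core ACGTG was found in 1 of the 11 and in 19.6% of all. The variant GCGTG was found in 5 of the 11 and in 32.4% of all. The ACGTG hit lay in the more downstream of the 2 Vegfa windows, with the stretch before its start at chr17:46025164-46025413, minus strand. No match to a known transcript of Vegfa was found just after that start. The other Vegfa window, where such a match was found, held 0 hits of ACGTG and 0 of GCGTG. A motif hit describes letters in the window and shows no binding.

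Counts assigned to genes ranged from 21410779 to 35318376 per library. Skeletal muscle transcripts differed strongly between libraries within both groups. The summed level of 12 muscle markers, none of them at 0 in all libraries, was 313, 1353 and 19.0 FPKM in group-housed mice 1, 2 and 3 and 24.2, 20.9 and 3807 FPKM in single-housed mice 1, 2 and 3. FPKM, the deposited level, is a count scaled to exon length and to the total of the library. B cell markers, which a lymph node within the pad would carry, were lowest in single-housed mouse 3, at a summed 215 FPKM against 400 to 669 FPKM in the other 5 libraries (8 markers). Transcripts of the mitochondrial chromosome took 6.02% to 7.53% of the counts under group housing and 9.19% to 12.05% under single housing. Adipocyte markers, the check of the tissue label, had a summed level of 6366 to 11880 FPKM over 10 markers.

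Vegfa was the most abundant of the 10 genes, with a mean of 80.8 FPKM over the 6 libraries, and its lowest library (60.9 FPKM) lay above the highest of Pecam1 (48.4 FPKM). Pecam1 followed with a mean of 42.4 FPKM, and its lowest library (35.1 FPKM) lay above the highest of Vegfb (31.0 FPKM). Vegfb (25.9 FPKM) and Kdr (20.6 FPKM) overlapped in their ranges. Kdr overlapped with Tek (11.1 FPKM), Tek with Erg (8.67 FPKM), and Erg with Flt1 (7.05 FPKM). Angpt2 (2.57 FPKM), Vegfc (2.12 FPKM) and Flt4 (1.40 FPKM) formed the low end, and their neighbouring ranges overlapped too. The lowest Flt1 library (5.08 FPKM) lay above the highest Angpt2 library (3.47 FPKM).

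**Figure D1:**
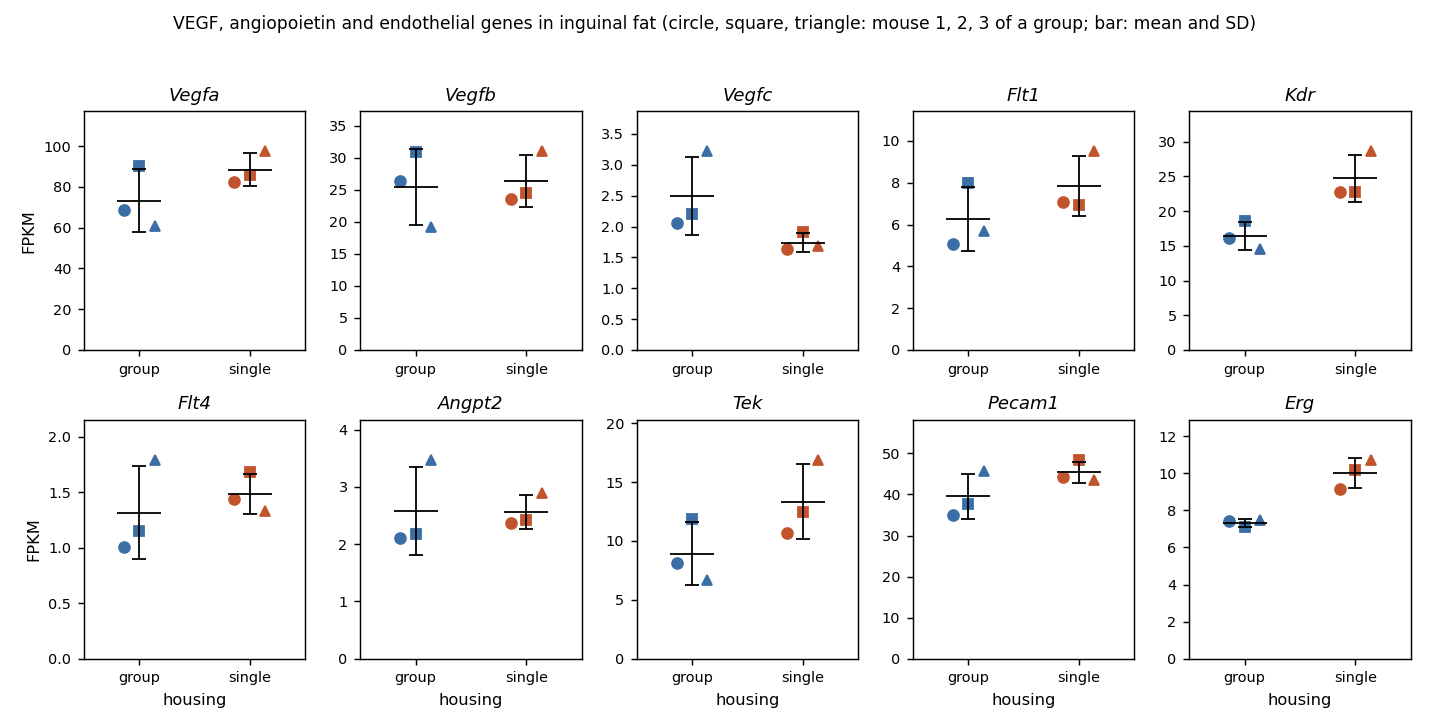
Deposited FPKM of each of the 10 genes (y axis, from 0) in the 6 libraries, by housing (x axis), with circle, square and triangle for mouse 1, 2 and 3 of a group and a bar for the mean and SD of 3 mice. For Kdr and Erg all single-housed points lie above all group-housed points, and for Vegfc all lie below.

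Among the ligands, Vegfa (ENSMUSG00000023951; mm39 chromosome 17, 46327919 to 46343295, minus strand) stood at 68.5, 90.3 and 60.9 FPKM in group-housed mice 1, 2 and 3 and at 82.2, 85.7 and 97.5 FPKM in single-housed mice 1, 2 and 3. The groups overlapped, because group-housed mouse 2 lay above single-housed mice 1 and 2. The log2 fold change, single minus group housing, was 0.36 ± 0.23 (SE; edgeR adjusted p = 0.824, unadjusted 0.158). Vegfb, the ligand of FLT1 (ENSMUSG00000024962; chromosome 19, 6959841 to 6965019, minus strand), stood at 26.3, 30.9 and 19.1 FPKM, then under single housing at 23.6, 24.5 and 31.0 FPKM, with nearly the same mean in both groups. Its log2 fold change was 0.14 ± 0.25 (edgeR adjusted p = 0.926). In both ligands the highest library of each group was the one with the most muscle transcripts, group-housed mouse 2 and single-housed mouse 3. The part of muscle in this was not tested for single genes beyond the fits given below.

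Vegfc (ENSMUSG00000031520; chromosome 8, 54530641 to 54640131, plus strand) was the one ligand with lower values under single housing. It stood at 2.06, 2.21 and 3.22 FPKM in the group-housed and at 1.63, 1.91 and 1.68 FPKM in those housed singly, from 100 to 268 counts per library. The 2 groups did not overlap, and group-housed mouse 3 stood apart above the rest. On the log2 scale the change was -0.43 ± 0.21 (edgeR adjusted p = 0.775, unadjusted 0.0868). Without group-housed mouse 3 it was -0.24.

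Kdr, the main signalling receptor of VEGFA (ENSMUSG00000062960; chromosome 5, 76093487 to 76139118, minus strand), stood at 16.1, 18.6 and 14.5 FPKM in the group-housed and at 22.8, 22.8 and 28.6 FPKM in those housed singly. The highest group-housed value thus lay below the lowest single-housed value. Group means were 16.4 ± 2.04 and 24.7 ± 3.37 FPKM (SD, n = 3 each). Its log2 fold change was 0.69 ± 0.20 (edgeR adjusted p = 0.588, unadjusted 0.0118), the largest among the 10 genes. Flt1, which shares the ligand VEGFA (ENSMUSG00000029648; chromosome 5, 147498414 to 147662821, minus strand), stood at 5.08, 8.01 and 5.70 FPKM, then under single housing at 7.06, 6.95 and 9.51 FPKM. Its groups overlapped through group-housed mouse 2, and its log2 fold change was 0.42 ± 0.26 (edgeR adjusted p = 0.822).

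Flt4, the receptor of VEGFC (ENSMUSG00000020357; chromosome 11, 49500090 to 49543566, plus strand), stood at 1.01, 1.15 and 1.79 FPKM, then under single housing at 1.44, 1.68 and 1.33 FPKM. In FPKM the group-housed range enclosed the single-housed one. In CPM with TMM scaling (counts divided by the library total scaled for composition), group-housed mice 1 and 2 (8.10 and 9.81) lay below all single-housed mice (11.8, 13.6 and 12.3), and group-housed mouse 3 (13.5) lay just below the highest of them. For Flt4 the log2 fold change was 0.26 ± 0.21 (edgeR adjusted p = 0.853). It was 0.11 without group-housed mouse 1 and 0.50 without group-housed mouse 3.

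In the angiopoietin pair, Tek (ENSMUSG00000006386; chromosome 4, 94627526 to 94763213, plus strand) stood at 8.16, 11.9 and 6.71 FPKM under group housing and at 10.7, 12.4 and 16.9 FPKM under single housing. Only group-housed mouse 2 overlapped with the single-housed mice, above mouse 1. For Tek the log2 fold change was 0.67 ± 0.31 (edgeR adjusted p = 0.745, unadjusted 0.0640). Its standard error was the largest of the 10 genes. Without group-housed mouse 2 the log2 fold change was 0.99, and without single-housed mouse 3 it was 0.39. Angpt2 (ENSMUSG00000031465; chromosome 8, 18740279 to 18791578, minus strand) stood at 2.11, 2.17 and 3.47 FPKM, then under single housing at 2.37, 2.42 and 2.90 FPKM. Its log2 fold change of 0.10 ± 0.23 (edgeR adjusted p = 0.940) was the smallest in size of the 10 and turned to -0.02 when libraries were scaled by their totals alone. Angpt2 lies within the span of Mcph1 on the opposite strand, which had 307 to 582 counts per library against 172 to 435 for Angpt2. The sources used here do not give the strand setting of the counting, so the Angpt2 values are uncertain to that extent.

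Of the 2 endothelial genes, Erg (ENSMUSG00000040732; chromosome 16, 95160028 to 95387452, minus strand) separated the groups most clearly. It stood at 7.42, 7.08 and 7.48 FPKM under group housing and at 9.14, 10.2 and 10.7 FPKM under single housing, a gap wider than the range of either group. Group means were 7.33 ± 0.22 and 10.01 ± 0.80 FPKM (SD, n = 3 each), and the log2 fold change was 0.54 ± 0.13 (edgeR adjusted p = 0.432, unadjusted 0.00404). By its p-value Erg ranked 167 among the 18085 genes and Kdr ranked 356. A gene without a symbol lies within Erg on the same strand and had 36 to 66 counts per library, or 6.88% of the counts of Erg, so Erg is uncertain to that extent.

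Pecam1 (ENSMUSG00000020717; chromosome 11, 106545043 to 106641454, minus strand) differed less than Erg. It stood at 35.1, 37.7 and 45.8 FPKM, then under single housing at 44.2, 48.4 and 43.5 FPKM, and on this scale group-housed mouse 3 lay above single-housed mice 1 and 3. In TMM-scaled CPM it stood at 212, 243 and 260 and at 275, 296 and 304, and the groups did not overlap. The log2 fold change was 0.29 ± 0.13 (edgeR adjusted p = 0.745, unadjusted 0.0627). The call of no overlap therefore rests on the scaling.

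Read together, 9 of the 10 genes had a log2 fold change above 0, against 48.1% of all genes tested, and their median was 0.32 against -0.01 over all genes. In edgeR 0 of 10 passed at an adjusted p below 0.05, as did 0% of all genes. DESeq2 also called 0 of the 10, and 1.14% of all genes (0.431% higher in single housing). At an unadjusted p below 0.05 there were 2 of 10, Kdr and Erg, both higher in single housing, against 6.96% of all genes in either direction and 3.49% higher. In DESeq2 this count was 4, with Tek and Pecam1 added, against 7.86% of all genes. In TMM-scaled CPM the ranges of the groups did not meet for 4 of 10 genes (Kdr, Pecam1 and Erg higher, Vegfc lower), against 13.4% of all genes, 6.61% higher and 6.78% lower. The 10 genes were chosen as a group with earlier results of these data known and share cell types, so these counts carry no test of their own. With 3 against 3 mice an exact permutation test of one gene cannot give a two-sided p below 0.1.

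Muscle transcripts differed widely between libraries of a group, and 2 further fits bear on it. With the mean level of the muscle markers as a covariate, edgeR called 3 of the 10 genes at an adjusted p below 0.05, all higher in single housing, and 5.63% of all genes (2.65% higher). They were Kdr (log2 fold change 0.70 ± 0.08, adjusted p = 0.00526), Erg (0.54 ± 0.09, adjusted p = 0.0147) and Tek (0.70 ± 0.13, adjusted p = 0.0215). Their fold changes were close to those without the covariate (0.69, 0.54 and 0.67), and their standard errors were smaller. In that fit 6 of 10 had an unadjusted p below 0.05, against 23% of all genes. Without group-housed mouse 2 and single-housed mouse 3, the 2 libraries with the most muscle transcripts, 0 of 10 passed (0.117% of all genes did, 0.0425% higher) and 5 of 10 had an unadjusted p below 0.05, against 12% of all genes. Those 5 were Vegfa, Flt1, Kdr, Tek and Erg, with log2 fold changes of 0.44, 0.45, 0.64, 0.71 and 0.44. In these 4 libraries 7 of the 10 genes did not overlap between the groups, against 43.3% of all genes (21.6% higher). Both fits were chosen with the muscle content of these libraries already known.

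**Figure D2:**
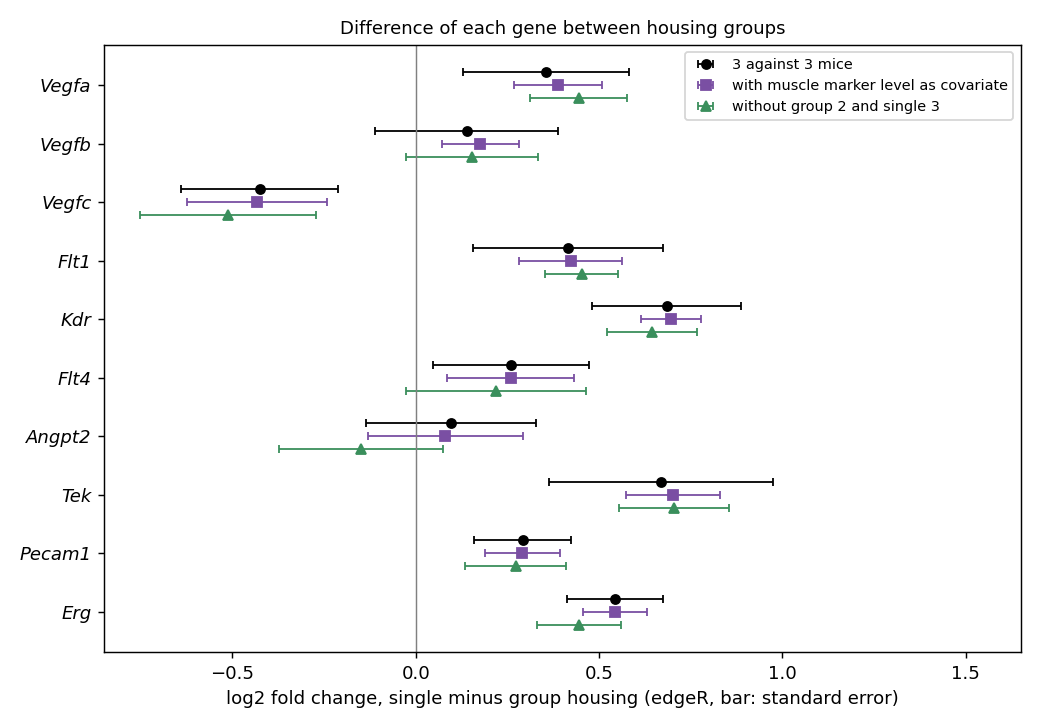
Log2 fold change of each gene (x axis, single minus group housing) with its standard error, from edgeR on all 6 libraries, with the muscle marker level as a covariate, and without the 2 libraries richest in muscle transcripts. Kdr, Tek and Erg keep log2 fold changes between 0.44 and 0.71 in these 3 fits, Vegfc stays below 0, and Angpt2 changes sign.

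Ratios within a library do not depend on how libraries are scaled to each other, and compare genes per length of exon. They are descriptions with no test. The ratio of Vegfc to its receptor Flt4 was 2.04, 1.92 and 1.80 in group-housed mice 1, 2 and 3 and 1.13, 1.14 and 1.26 in single-housed mice 1, 2 and 3. The lowest group-housed ratio thus lay well above the highest single-housed one, although the Flt4 levels overlapped. Group-housed mouse 3, which had the highest Vegfc of all, also had the highest Flt4 in FPKM, and its ratio was the lowest of its group. The ratio of Vegfc to Pecam1 was 0.0588, 0.0586 and 0.0704 and then 0.0369, 0.0395 and 0.0386, again with no overlap.

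The ratio of Vegfa to Kdr was 4.26, 4.86 and 4.19 under group housing and 3.60, 3.76 and 3.40 under single housing, so less ligand transcript stood against each receptor transcript in all 3 single-housed mice. The ratio of Kdr to Pecam1 was 0.459, 0.493 and 0.318 and then 0.516, 0.471 and 0.658, with overlap between group-housed mouse 2 and single-housed mouse 2. The ratio of Erg to Pecam1, at 0.212, 0.188 and 0.163 and then 0.207, 0.210 and 0.246, overlapped through group-housed mouse 1. Tek to Pecam1 was highest in single-housed mouse 3 (0.388) and next in group-housed mouse 2 (0.315), the 2 libraries richest in muscle transcripts. Flt4 to Pecam1 had nearly the same mean in both groups, 0.0328 ± 0.0055 and 0.0326 ± 0.0021 (SD, n = 3 each). The ratio of Kdr to Flt1 was 3.17, 2.32 and 2.55 and then 3.23, 3.28 and 3.01, and overlapped through group-housed mouse 1. Of the 15 ratios computed, 3 did not overlap between the groups, and all 3 were lower in single housing. They were Vegfc to Flt4, Vegfc to Pecam1 and Vegfa to Kdr. Vegfc to Flt4 and Vegfa to Kdr were among the 5 ratios added after seeing the levels. The Vegfc ratios share a gene, and no share over other pairs of genes was computed to set beside this count.

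**Figure D3:**
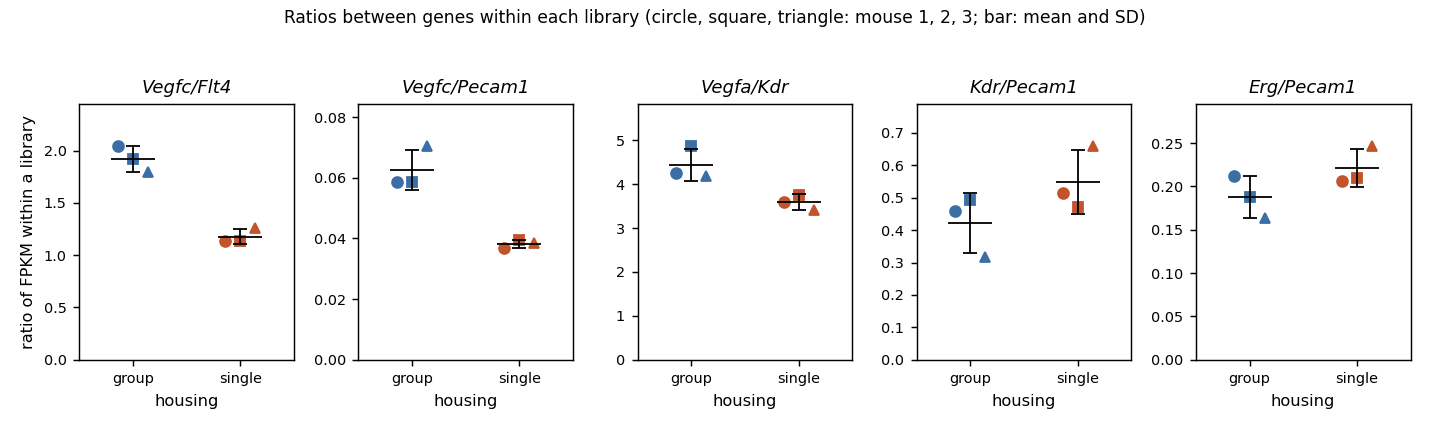
Ratio of the FPKM of 2 genes within a library (y axis, from 0) by housing, with circle, square and triangle for mouse 1, 2 and 3 of a group and a bar for the mean and SD of 3 mice. Vegfc to Flt4, Vegfc to Pecam1 and Vegfa to Kdr separate the groups with lower values in single housing. Kdr to Pecam1 and Erg to Pecam1 overlap. Vegfc to Flt4 and Vegfa to Kdr were added after the levels were seen.

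Endothelial genes outside the 10 were examined in lists of markers, and 0 genes of any list passed in edgeR at an adjusted p below 0.05. Of 20 markers that most endothelial cells carry, 15 had a log2 fold change above 0, the median was 0.34, and 6 were higher at an unadjusted p below 0.05, against 3.49% of all genes. With 1 library left out the median ran from 0.23 without single-housed mouse 3 to 0.60 without group-housed mouse 2. Cdh5, the cadherin of endothelial junctions, stood at 24.7, 34.5 and 28.8 FPKM, then under single housing at 36.9, 43.4 and 53.8 FPKM, with no overlap between the groups (log2 fold change 0.70 ± 0.23, edgeR adjusted p = 0.624). Emcn, a sialomucin of capillaries and veins (0.58 ± 0.19), Myct1 (0.70 ± 0.23) and Robo4, an endothelial guidance receptor (0.48 ± 0.18), also did not overlap in CPM, against 6.61% of all genes that were higher without overlap. Other members of the same list differed little: the tight junction gene Cldn5 stood at 28.9 ± 4.30 and 26.9 ± 2.41 FPKM, and Egfl7, a secreted endothelial protein, at 20.1 ± 2.31 and 20.6 ± 0.44 FPKM (SD, n = 3 each). With the muscle covariate 5 of the 20 passed (Cdh5, Emcn, Myct1, Ptprb and Robo4), all higher, against 2.65% of all genes that were called higher. In the other 12 vascular lists that fit called Meox2, Aplnr, Cd300lg, Efnb2, Egln1 and Esrra higher, besides Ptprb. It called Icam1 and Vcam1 of the venous and activated list, Glycam1, Dok2 and the inhibitors Cxcl10, Sema3a and Thbs1 lower. Of all genes, that fit called 5.63% in either direction and 2.65% higher.

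By vessel type, capillary markers (10 genes) had a median log2 fold change of 0.20, with 7 above and 3 below 0. At an unadjusted p below 0.05, 3 were higher, Meox2, Aplnr and Cd300lg, against 3.49% of all genes. The median was -0.016 without single-housed mouse 3, 0.03 without group-housed mouse 3 and 0.46 without group-housed mouse 2. Rgcc, the most abundant of these markers, was among those below 0, at 138 ± 33.4 and 112 ± 6.07 FPKM. The summed level of the 10 markers overlapped, at 310, 334 and 223 FPKM, then under single housing at 267, 278 and 321 FPKM. Arterial markers (12 genes) had a median of 0.24, 0.095 to 0.40 with 1 library left out, and 2 higher genes at an unadjusted p below 0.05. These were Efnb2, an arterial ephrin ligand, at 2.72 ± 0.22 and 3.63 ± 0.18 FPKM, and the netrin receptor gene Unc5b, at 1.30 ± 0.29 and 1.91 ± 0.16 FPKM, both without overlap. Venous and activated endothelial markers (9 genes) had a median of -0.26, -0.49 to -0.18 with 1 library left out, and 1 lower gene at that level, Lrg1, which other cells also express, at 80.1 ± 44.4 and 33.8 ± 5.14 FPKM. Sprouting and tip cell genes (12) had a median of 0.12, with Unc5b as the only gene at an unadjusted p below 0.05. The sign of this list's median rests on single libraries: the median was -0.066 without group-housed mouse 3, -0.031 without single-housed mouse 3, -0.0064 without group-housed mouse 1 and 0.35 without group-housed mouse 2. Endothelial transcription factors (17) had a median of 0.06 (0.30 without group-housed mouse 2), with Meox2 as the only gene at that level. Meox2 stood at 11.9 ± 0.86 and 15.0 ± 1.82 FPKM.

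Lymphatic endothelial markers (9 genes) had a median log2 fold change of 0.10 (-0.17 without group-housed mouse 2) and 1 gene at an unadjusted p below 0.05. Of all genes 6.96% reached that level in either direction, and 3.47% were lower. The lymphatic marker was Pdpn, which fibroblasts and macrophages can also express, at 5.54, 8.13 and 9.49 FPKM and at 3.62, 2.75 and 4.66 FPKM, lower in each single-housed mouse (-0.96 ± 0.30, edgeR adjusted p = 0.588). Prox1, the transcription factor that defines lymphatic endothelium, stood at 1.04, 0.35 and 1.13 FPKM, then under single housing at 1.03, 1.22 and 0.44 FPKM, with its 2 low values in the libraries with the most muscle and the fewest B cell transcripts. Lyve1, a hyaluronan receptor that some macrophages also carry, stood at 15.9 ± 5.20 and 11.8 ± 1.27 FPKM. The 5 markers of high endothelial venules, the vessels through which lymphocytes enter lymph nodes, all had a log2 fold change below 0 (median -0.36, or -0.0016 without group-housed mouse 3), and none had an unadjusted p below 0.05. Their leading gene Glycam1 was lowest in single-housed mouse 3 (11.6 FPKM), the library with the lowest B cell markers, against 25.7 to 49.9 FPKM elsewhere. The part of lymph node content in the Vegfc and Flt4 values was not tested.

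**Figure D4:**
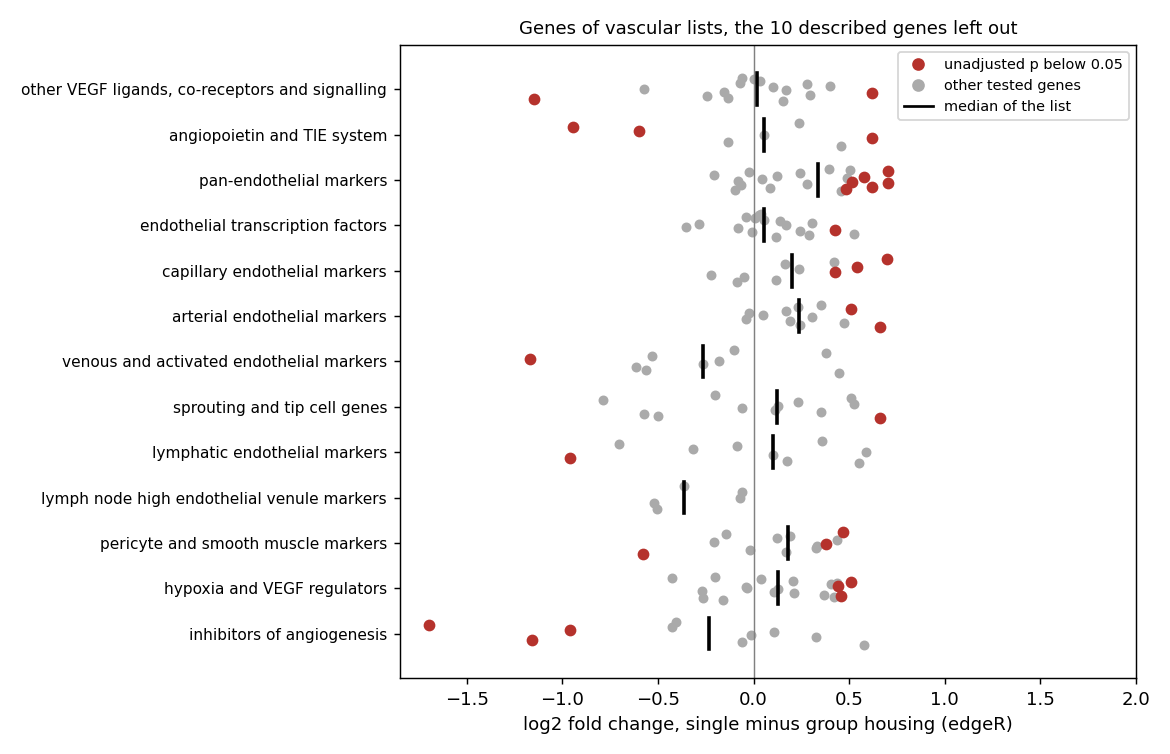
Log2 fold change of each tested gene (x axis, single minus group housing, edgeR) in 13 vascular lists, with the 10 described genes left out, red for an unadjusted p below 0.05 and a black line for the median of a list. Red points of the pan-endothelial, capillary and arterial lists lie above 0, and those of the inhibitor list lie below 0.

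The VEGF and angiopoietin pathways beyond the 10 genes had differences in both directions. The remaining VEGF ligands, co-receptors and signalling genes (16) had a median log2 fold change of 0.02 (-0.028 to 0.064 with 1 library left out). Of these, 9 lay above and 7 below 0. At an unadjusted p below 0.05 was 1 gene in each direction, against 3.49% of all genes higher and 3.47% lower. Ptprb, the phosphatase that restrains TEK and KDR signalling, stood at 7.85, 11.6 and 8.34 FPKM, then under single housing at 11.9, 12.5 and 15.8 FPKM (0.62 ± 0.24, edgeR adjusted p = 0.693). The sphingosine kinase gene Sphk1 was near the low end at 0.42 ± 0.10 and 0.18 ± 0.07 FPKM. Pgf, the placental growth factor that binds FLT1, stood at 1.13 ± 0.19 and 0.71 ± 0.25 FPKM, and the co-receptor gene Nrp1 at 10.8 ± 1.78 and 13.4 ± 2.02 FPKM (SD, n = 3 each), neither at an unadjusted p below 0.05. The 7 further angiopoietin and TIE genes had a median of 0.06, or 0.50 without group-housed mouse 2. At an unadjusted p below 0.05, 1 of them was higher and 2 were lower, against 3.49% and 3.47% of all genes. The lower ones were Dok2, an adaptor of TEK that myeloid cells also express and that overlaps Xpo7 antisense to it, at 8.13 ± 1.48 and 5.04 ± 0.86 FPKM, and Angpt4, at 0.31 ± 0.02 and 0.15 ± 0.02 FPKM.

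Hypoxia genes and regulators of VEGF (19) had a median log2 fold change of 0.13, with 3 higher at an unadjusted p below 0.05 (3.49% of all genes were), and 0.019 without single-housed mouse 3. Esrra, a nuclear receptor that works with PGC-1 coactivators, stood at 10.35 ± 0.999 and 13.2 ± 0.70 FPKM and overlaps Trmt112. Egln1, a prolyl hydroxylase that marks hypoxia-inducible factors for breakdown, stood at 26.2 ± 3.68 and 35.1 ± 4.00 FPKM, and the coactivator gene Ppargc1a at 2.63 ± 0.42 and 3.40 ± 0.30 FPKM. Inhibitors of angiogenesis (10) had a median of -0.23, with 3 at that level, all lower, against 3.47% of all genes. That median was 0.083 without group-housed mouse 2 and -0.56 without single-housed mouse 3. Thbs1, the matrix protein thrombospondin, stood at 4.30, 5.01 and 8.35 FPKM under group housing and at 2.74, 2.38 and 2.27 FPKM under single housing, with no overlap (-1.16 ± 0.23, edgeR adjusted p = 0.321). The chemokine gene Cxcl10, induced by interferon and overlapping the antisense gene Art3, had means of 13.6 ± 6.68 and 3.92 ± 0.68 FPKM, and the semaphorin gene Sema3a means of 1.12 ± 0.48 and 0.54 ± 0.12 FPKM. DESeq2 called Cxcl10 and Thbs1 lower, the only genes that it called in the 13 vascular lists, against 1.14% of all genes in either direction.

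Other cells that share genes with the vessel wall were read from their own lists. Pericyte and smooth muscle markers (12) had a median log2 fold change of 0.18, which was -0.10 without single-housed mouse 3 and 0.40 without group-housed mouse 2. At an unadjusted p below 0.05 were Kcnj8 and Abcc9 of pericytes, both higher, and Tagln of smooth muscle, which overlaps Pcsk7, lower. Of all genes 6.96% reached that level in either direction. Macrophage and monocyte markers (10), which include cells that can carry Pecam1, had a median of -0.46, 9 of 10 lay below 0, and 4 were lower at an unadjusted p below 0.05, against 3.47% of all genes. At an adjusted p below 0.05 DESeq2 called 3 of them lower (Ccr2, Fcgr1 and Itgam), against 1.14% of all genes in either direction. The edgeR fit with the muscle covariate called these and Cd68, against 5.63% of all genes in either direction. Platelet markers, 4 of 6 tested, had a median of -0.34 and none at an unadjusted p below 0.05. Medians were -0.33 for B and plasma cells (8), -0.15 for T and NK cells (8), 0.21 for adipocytes (10) and -0.13 for adipose progenitors (10). Without single-housed mouse 3 they were 0.02 for B and plasma cells, 0.20 for T and NK cells, -0.018 for adipocytes and -0.40 for adipose progenitors, so the sign of the first 3 rests on that library. The median of the skeletal muscle markers (12) was 1.31, and its direction depends on the libraries and on the model. It was -4.96 without single-housed mouse 3 and -3.12 without the 2 muscle-rich libraries. With all 6 libraries it was -3.16 with the replicate number as a block and -0.50 with limma on log2(FPKM + 1). The 2 muscle genes at an unadjusted p below 0.05, the myosin genes Myh1 and Myh2, stood at 11.05 and 1.86 FPKM in single-housed mouse 3 and at no more than 0.54 and 0.13 FPKM in the other 5. The lists share genes, among them Ptprb, Meox2, Unc5b, Pgf and Icam1, and are not independent.

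The genes whose levels followed Kdr and Vegfa most closely over the 6 libraries were ranked by Pearson correlation of log2 CPM among 7714 genes with a mean of at least 5 FPKM. For Kdr the first 6 were mt-Cytb and mt-Nd4, 2 transcripts of the mitochondrial chromosome, then Ptgr2, Clic5, Uqcc1 and Stom, with r of 0.997 to 0.999. Clic5 stood at 3.29 ± 0.84 and 7.57 ± 2.30 FPKM, and Stom at 32.8 ± 3.43 and 49.9 ± 8.55 FPKM (SD, n = 3 each). For Vegfa they were Lman2l, Mccc1, Mmut, Miga2, Ushbp1 and Abcd2, with r of 0.994 to 0.998. Among the 10 genes themselves Vegfa ran closest with Tek (r = 0.985) and Kdr with Tek (r = 0.958), while Vegfc ran against Kdr (r = -0.707). The points are 6 libraries that differ in housing, depth and muscle content, so these values describe these libraries only. Both housing groups were pooled, so a gene that differs between the groups as Kdr does ranks high for Kdr.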

How the data were processed

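Total RNA of inguinal fat of 6 mice was sequenced, 1 library per mouse. Per the file headers, the deposited table gives raw, whole-number counts per gene, repeated in another sheet. The authors' FPKM equal the count divided by the summed exon length and the library's total (100% of values within 0.0051). Build mm39 is named in the submitters' processing notes. Aligner, annotation release and strand setting: not given in the sources used here. A further 24 columns with names of other tissues match no sample and were not used.

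The test was the two-sided quasi-likelihood F test of edgeR 4.0.16 under R 4.3.3, after filterByExpr and TMM scaling, with Benjamini-Hochberg adjustment over 18085 genes. Standard errors are the size of the log2 fold change over the root of F. The biological coefficient of variation was 0.265. Alternatives were DESeq2 1.42.0, limma 3.58.1 on log2(FPKM + 1) and log2(FPKM + 0.1) of the deposited FPKM, other scalings, no filter, a block, a muscle covariate and libraries left out. From each of 20 lists (208 genes) the 4 genes of smallest p could be named. Others were named after their values were seen (Cldn5, Egfl7, Prox1, Rgcc). The genes and lists were chosen with earlier results of these data known. Of the ratios, those to Pecam1 and of Kdr to Flt1 were planned, and the other 5 were added after seeing the levels.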

Additional observations from a re-analysis of the deposited data

How the results depend on the processing

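In edgeR 0 genes of all and 0 of the 10 passed under RLE size factors, library totals alone, the replicate block and each single library left out. All-gene counts were 207 in DESeq2, 53 without a filter on low counts, 1018 with the muscle covariate and 22 without the 2 libraries richest in muscle transcripts. Of the 10 genes, 3 passed with the covariate. At an unadjusted p below 0.05 the main count of 2 became 4 in DESeq2 (7.86% of all genes) and 6 with the covariate (23% of all genes). It became 5 without those 2 libraries (12% of all genes), and 2 to 5 with 1 library left out (4.27% to 9.57% of all genes). It was 5 without group-housed mouse 2 (9.57% of all genes) and 4 without group-housed mouse 3 (4.44% of all genes), against 6.96% with all 6. Genes without overlap numbered 4 in the main comparison and 7 without the 2 libraries (43.3% of all genes). They numbered 3 with library totals (14.2% of all genes) or FPKM (14.5%). With 1 library left out they numbered 4 to 7 (18.4% to 34.4% of all genes). The 7 were without group-housed mouse 2, where 34.4% of all genes did not overlap. That share was 18.4% to 21.4% with any other single library left out and 13.4% with all 6. With fewer libraries groups separate more easily, so the 7 cannot be set directly against the main 4. The causes were not tested. The log2 fold change of Vegfb was -0.05 without group-housed mouse 3 and -0.061 without single-housed mouse 3. That of Angpt2 was -0.016 with library totals alone, -0.15 without the 2 libraries, -0.024 without group-housed mouse 1 and -0.072 without single-housed mouse 3. With 1 library left out, Vegfb ran from -0.061 to 0.36 and Angpt2 from -0.072 to 0.32. The other 8 genes kept their direction under all 15 alternatives: Kdr ran from 0.50 to 0.84, Erg from 0.40 to 0.64, Tek from 0.39 to 0.99, Flt1 from 0.18 to 0.69, Vegfa from 0.21 to 0.59, Flt4 from 0.11 to 0.50, Pecam1 from 0.20 to 0.37 and Vegfc from -0.54 to -0.24. The median of all genes moved from -0.01 to -0.11 with limma on log2(FPKM + 0.1). The labels do not say whether mice of the same number were paired. Deviations of same-numbered libraries from their group means correlated at 0.12, -0.56 and -0.70. The 2 muscle-rich libraries, group-housed mouse 2 and single-housed mouse 3, correlated at 0.72. With muscle content differing this much, these correlations cannot show whether the numbers pair the mice. With the number as a replicate block, 0 genes passed, Kdr and Erg stayed at an unadjusted p below 0.05 (edgeR, 0.0456 and 0.0220, adjusted p = 0.999 for both), and the count at that level fell from 1259 to 590 genes. Depth limits Vegfc most, at 100 to 268 counts per library.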
